A study of Mus musculus with 5 samples.

Results

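DNA replication and S-phase genes were followed through the conversion of mouse embryonic fibroblasts (MEFs) in 5C medium. The set holds 48 named genes for replication licensing, polymerases, nucleotide synthesis and E2F control, which were matched by symbol to gene identifiers. All 48 were found among the 27729 genes of the deposited data, and 46 of them had a mean of 10 or more expected counts over the 5 libraries. The 2 others, Orc1 and E2f2, are described by their levels only. The 46 genes are compared with the 12130 genes of the whole data set that met the same minimum.

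The MEFs came from embryos of the ICR mouse strain and were sampled in growth medium with 10% FBS (day 0) and then 2, 5, 10 and 14 days after a change to 5C medium. 5C is a serum-free induction medium based on DMEM/F12. It holds the N2 supplement, the growth factor bFGF, the cytokine LIF, vitamin C and 2-mercaptoethanol. The labels call this medium 6C, and their treatment text gives day 15 for the last harvest, whereas the day label of that library is 14. Total RNA of 1 culture per day was sequenced as 1 library, so no test between days was possible. The expected counts summed to 2253748 on day 2 and to between 3362149 and 3890334 in the other libraries, and 3 counts correspond to between 0.771 and 1.33 per 1000000 counts.

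Before a cell copies its DNA, the origin recognition complex, Cdc6 and Cdt1 load rings of the Mcm2 to Mcm7 proteins onto origins. Cdc45 and the GINS complex then turn the rings into active helicases. Primase and DNA polymerase alpha start each strand, and polymerases delta and epsilon extend it behind the sliding clamp PCNA, which the RFC complex loads. RPA covers single-stranded DNA, Fen1 and Lig1 finish Okazaki fragments, and ribonucleotide reductase and its partner enzymes supply the nucleotides. Many of these genes are transcribed under the E2F factors as cells pass from G1 into S phase, and fibroblasts that stop dividing are known to lower them.

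Promoter sequences are shown because E2F sites are the best known shared feature of this gene set. The promoter table of RefSeq (build GRCm38.p6) held windows of 250 bases before to 50 bases after the start for 40 of the 48 genes. An E2F site was searched as TTTGGCGC, TTTCCCGC, TTTCGCGC or TTTGCCGC on both strands, where sites on opposite strands can overlap. It was found for 15 of the 40 genes (37.5%), beside 2.605% of the 27025 genes in the table. Of the 9 licensing genes with a window 7 held a site, of the 7 primase and polymerase genes 4, and of the 5 nucleotide synthesis genes 0. A CCAAT box (CCAAT) was in 60% of the 40 genes and 41.1% of all genes. The GC box (GGGCGG) was in 77.5% and 38.2%, and the CHR element (TTTGAA) in 15% and 20.2%. These matches are letters in a window and not measured binding. The 13 genes with a site that passed the count minimum had a median change of −1.12 on day 14, with 7 of them over 2-fold lower. For the 25 without a match to these 4 spellings the median was −1.22, with 13 over 2-fold lower. Of all genes that passed the minimum 19.7% were over 2-fold lower on that day. Other spellings and bases outside the window were not searched. The split therefore cannot compare genes with and without E2F control. The stretches below lie outside annotated exons, with E2F sites in capitals, for licensing genes and for the catalytic subunit of polymerase alpha. They are written 5′ to 3′ on the strand of the gene.
Mcm6, chr1:128359788-128359835, minus strand: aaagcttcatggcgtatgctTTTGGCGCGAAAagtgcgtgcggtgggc
Mcm6, chr1:128359725-128359772, minus strand: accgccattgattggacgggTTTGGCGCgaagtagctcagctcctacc
Cdc6, chr11:98907993-98908040, plus strand: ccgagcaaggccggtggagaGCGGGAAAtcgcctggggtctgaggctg
Pola1, chrX:93632266-93632313, minus strand: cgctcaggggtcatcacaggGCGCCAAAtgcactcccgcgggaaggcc
The upstream sequences of Mcm5 and Rrm2, which were both low on day 14, are given at greater length. In the spellings searched, Mcm5 held E2F sites and Rrm2 held none. Capitals mark every E2F site, CCAAT box and GC box. The Mcm5 stretch has 250 bases with 2 overlapping E2F sites and 2 CCAAT boxes, and the Rrm2 stretch has 237 bases with 1 CCAAT box and 2 GC boxes.
Mcm5, chr8:75109259-75109508, plus strand: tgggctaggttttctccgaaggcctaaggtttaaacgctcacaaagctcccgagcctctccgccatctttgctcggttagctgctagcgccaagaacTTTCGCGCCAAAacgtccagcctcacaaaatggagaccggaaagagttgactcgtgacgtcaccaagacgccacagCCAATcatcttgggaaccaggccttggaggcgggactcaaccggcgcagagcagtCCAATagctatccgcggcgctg
Rrm2, chr12:24708004-24708240, plus strand: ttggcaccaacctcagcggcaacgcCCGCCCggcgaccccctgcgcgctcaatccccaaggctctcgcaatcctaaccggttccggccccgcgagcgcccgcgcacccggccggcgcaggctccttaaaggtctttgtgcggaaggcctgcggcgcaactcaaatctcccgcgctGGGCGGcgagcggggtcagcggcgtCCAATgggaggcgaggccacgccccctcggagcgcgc

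In normalized counts the replication genes as a group were slightly above day 0 on days 2 and 5, below it on day 10 and lowest on day 14. Their level is given as a normalized count, which is the expected count scaled to the effective size of its library. Changes are log2 ratios to day 0 after adding 1 to each normalized count, and a gene is called higher or lower when the ratio passed 2-fold. The median change of the 46 genes was 0.32, 0.22, −0.50 and −0.99 for days 2, 5, 10 and 14. Over all 48 genes these medians were the same to 2 decimals. The median of the 12130 genes stayed between −0.06 and 0.08. On day 10 the median of the 46 genes depended on the scaling, at −0.03 with total counts and 0.46 with TPM, as described below. In RNA from whole cultures, fewer cells in S phase and less RNA of these genes per cell cannot be told apart.

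By day 14, 23 of the 46 genes were over 2-fold below day 0 and 0 were over 2-fold above it. Among all genes tested 19.7% were lower and 22.8% were higher. On day 10 the set had 10 lower and 0 higher genes, beside 22.7% and 26.4% of all genes. On day 5, 1 gene (Gins3) was lower and 2 (Pcna and Brca1) were higher, beside 13.4% and 18.3% of all genes. On day 2, 3 genes (Cdc6, Mcm4 and Ccne2) were lower and 3 (Rfc2, Rfc5 and Lig1) were higher, beside 12.6% and 13.4%. The counts of days 2 and 5 were below these shares of all genes in both directions. The count of lower genes on day 10 was not above its share of all genes either. From day 10 to day 14, 9 genes were lower and 0 higher, whereas 6.5% of all genes were lower and 3.96% higher over the same days.

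**Figure D1:**
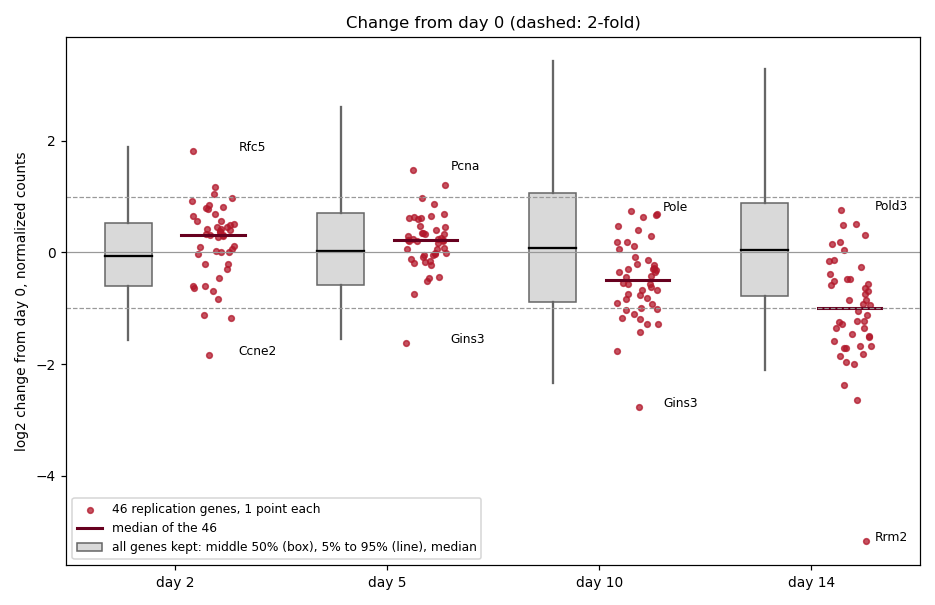
Log2 change from day 0 of normalized counts on days 2, 5, 10 and 14, with 1 red point for each of the 46 replication genes and a dark red line at their median. Grey boxes show the middle 50% of the 12130 genes, grey lines reach from 5% to 95%, black lines mark the median and dashed lines mark 2-fold. The red points move down from day 5 to day 14 while the black line stays near 0, and Rrm2 lies far below the others on day 14.

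The single genes did not share 1 day of highest level. The day 2 library held the highest normalized count of 25 of the 46 genes, day 5 that of 11, day 0 that of 6, day 10 that of 3 and day 14 that of Pold3 alone. The lowest count was in the day 14 library for 28 genes and in the day 10 library for 11. With TPM the tally was another one. The highest value was then on day 5 for 22 genes, on day 2 for 12 and on day 10 for 11. The lowest TPM was on day 14 for 26 genes, on day 2 for 10, on day 0 for 9 and on day 10 for 1. Counting error was described by exact 95% intervals (Clopper-Pearson). These intervals cover counting error only and not differences between cultures. On day 14 the interval lay below 0 for 30 of the 46 genes and above 0 for 2 (Pcna and Pold3), beside 34.6% and 35.7% of all genes. On day 2 it lay above 0 for 15 genes and below 0 for 7, beside 23.9% and 27.3%.

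**Figure D2:**
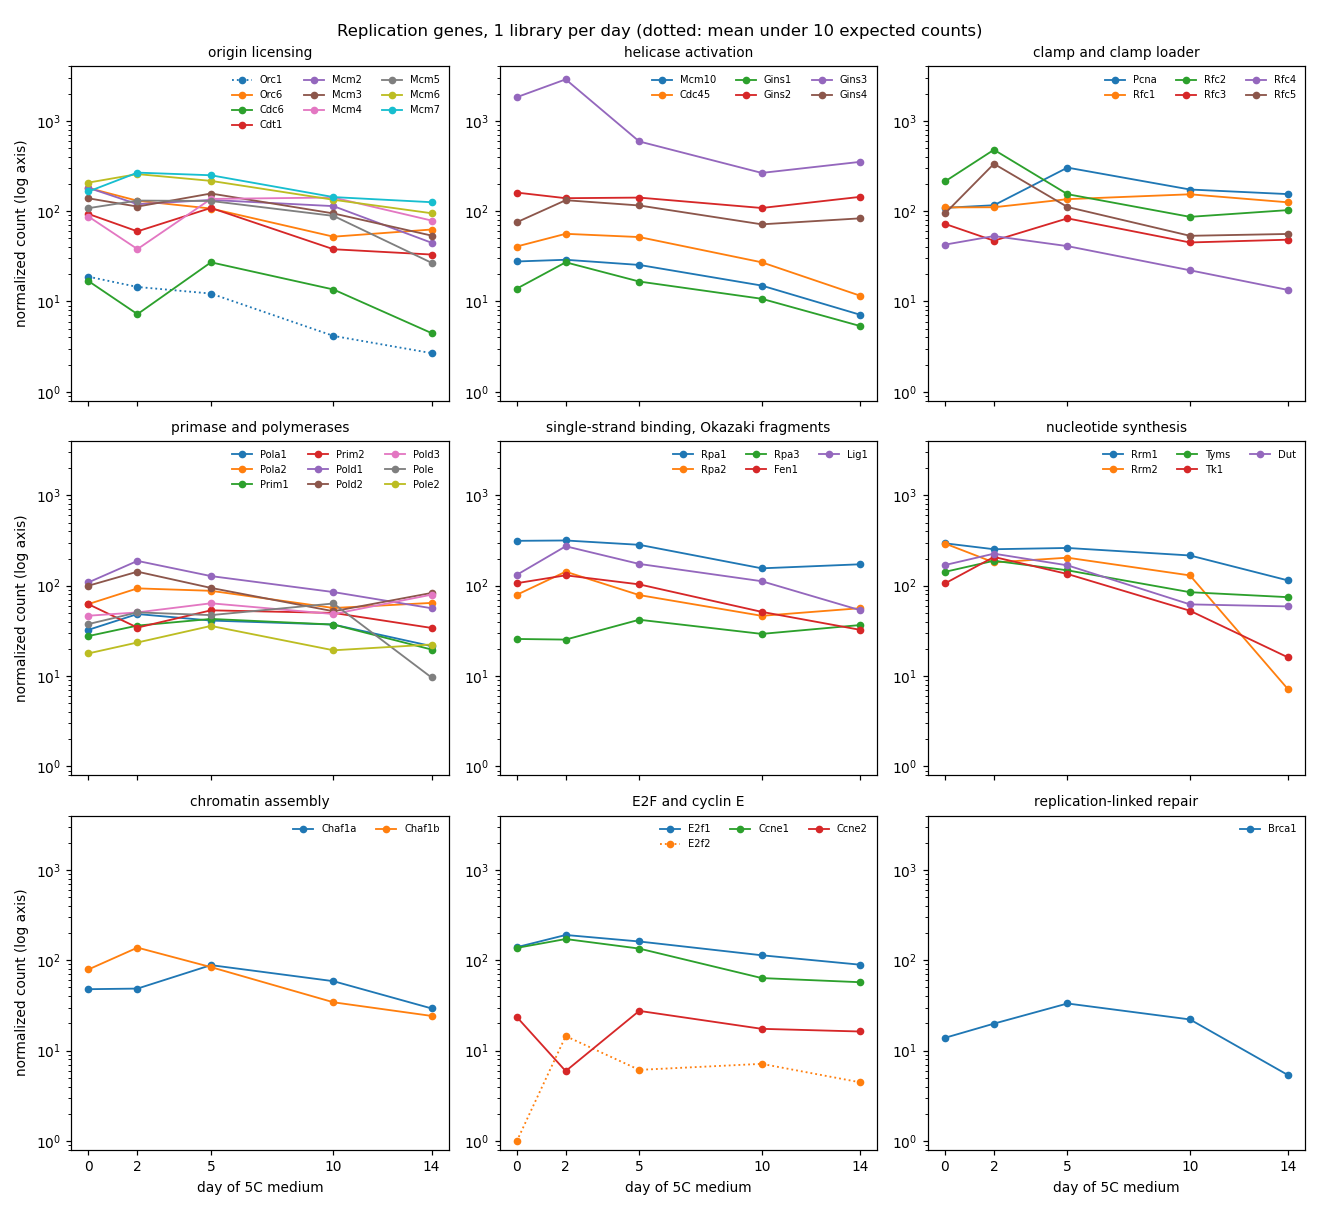
Normalized counts (log axis) of all 48 genes by day of 5C medium in 9 panels by role, with 1 library per day and 1 line per gene. Dotted lines mark Orc1 and E2f2, which had a mean under 10 expected counts. Gins3 lies above all others in counts not divided by length, and the steepest drops between days 10 and 14 are those of Rrm2 and Pole.

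The direction on days 5, 10 and 14 has to be read against the scale. TPM values, which are divided by gene length and scaled to a fixed total, moved the median of all genes by −0.24, 0.62, 1.09 and 0.80 on the 4 days in order. On that scale the median of the 46 genes was 0.12, 0.74, 0.46 and −0.33, so that its sign turned on day 10. With TPM the set had 10 higher and 1 lower gene on day 10, where all genes had 6415 higher and 811 lower. On day 14 it had 4 higher genes (Pcna, Pold3, Pole2 and Rpa3) and 6 lower (Mcm2, Mcm10, Gins3, Pole, Rrm2 and Tk1). Among all 12130 genes 5116 were higher and 818 lower on day 14 with TPM. None of the 23 genes called lower on day 14 was above day 0 in TPM. After subtraction of the median of all genes, TPM gave 0 higher and 14 lower genes on day 10, and 0 higher and 25 lower on day 14. Longer genes also moved apart from shorter ones. When the 12130 genes were ranked by length, the longest 10% had a median of 1.04 on day 10 and the shortest 10% one of −1.53. The replication genes had a median length of 2028 bases, beside 2557 for all. Against genes of their own length their median was −0.29 on day 10 and −0.89 on day 14.

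**Figure D3:**
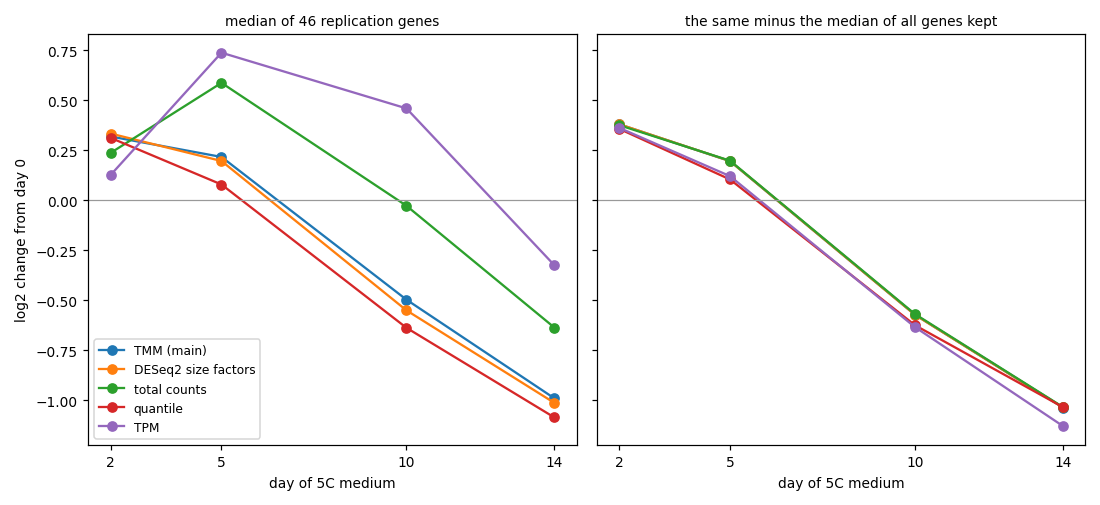
Median log2 change from day 0 of the 46 replication genes under 5 scalings of the libraries (left), and the same after subtraction of the median of all genes under that scaling (right), by day. The lines lie apart on the left, where TPM stays above 0 until day 10. On the right all 5 lie close together and go from above 0.3 on day 2 to about −1 on day 14, and the lines of TMM and DESeq2 are hidden under that of total counts.

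Origin licensing genes were low on day 14, with a median change of −1.46. Of the 9 that passed the minimum 7 were over 2-fold below day 0, beside 19.7% of all genes. Among the Mcm2 to Mcm7 genes, whose products form the helicase ring, Mcm2 (ENSMUSG00000002870, chromosome 6, 88883474 to 88898780) had normalized counts of 181, 119, 133, 114 and 44.7 in the 5 libraries in order of day. Its change on day 14 was −1.99 (95% interval −2.50 to −1.56), the largest of the 9. Mcm5 (ENSMUSG00000005410, chromosome 8, 75109569 to 75128439) had counts of 108, 131, 130, 88.6 and 26.8, and a change of −1.97 (−2.64 to −1.41). In normalized counts the day 14 library was the lowest by a wide margin in both genes. The TPM of Mcm2 was closer between days, at 10.37 on day 2 and 8.57 on day 14. Mcm3 was at 139, 112, 157, 94.3 and 53.6. Mcm6 was at 207, 257, 216, 134 and 94.7. These 2 genes were 2.55-fold and 2.17-fold lower on day 14 than on day 0.

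Mcm4 and Mcm7 kept more of their level. Mcm4 (ENSMUSG00000022673, chromosome 16, 15623897 to 15637400) was at 87.1, 38, 137, 141 and 78.7, highest on day 10 and lowest on day 2, where its change was −1.18 (−1.96 to −0.50). Mcm7 was at 165, 267, 249, 143 and 125, highest on day 2. On day 14 the changes were −0.15 (−0.59 to 0.30) for Mcm4 and −0.39 (−0.74 to −0.07) for Mcm7. The 6 ring genes therefore did not keep a fixed proportion. Compared per length, Mcm4 made up 7.37%, 1.96%, 10.6%, 16.9% and 14.6% of the summed TPM of the 6 genes in order of day. The share of Mcm5 was 9.57% at day 0 and 5.21% at the end. The gene for Mcm7 shares 7.25% of its exon bases with Ap4m1 on the opposite strand, and the library kit does not mark strand, so its counts may hold reads of Ap4m1.

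The loading factors were low late as well. Orc6, a subunit of the origin recognition complex, was at 180, 130, 107, 52.1 and 62.6, which is 2.85-fold lower on day 14. Cdt1, which brings the ring to the origin, was at 93, 59.7, 109, 37.8 and 33.1, and 2.76-fold lower on day 14. Cdc6, the loading ATPase, had no more than 31 expected counts and reached 27.1 on day 5 and 4.47 on day 14. Orc1, the large subunit of the origin recognition complex, had 19, 8, 13.98, 5.82 and 3 expected counts in order of day, too few for more than a description. The highest of these was in the day 0 library and the lowest in the day 14 library.

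Of the 6 helicase activation genes 4 were over 2-fold lower on day 14, beside 19.7% of all genes. Gins3 (ENSMUSG00000031669, chromosome 8, 95633453 to 95645060), a subunit of GINS, had the highest TPM of the set at days 0, 2 and 14, and the next highest after Pcna at days 5 and 10. Its normalized counts were 1822, 2873, 590, 265 and 351. The change from day 0 was 0.66 (0.56 to 0.75) at day 2. At days 10 and 14 it was −2.78 (−2.95 to −2.62) and −2.37 (−2.54 to −2.22). Between days 2 and 5 alone Gins3 changed by −2.28, more than any other of the 46 genes. The other GINS genes took other courses over the 14 days. Gins1 was at 13.9, 27.1, 16.6, 10.7 and 5.36, highest on day 2 like Gins3. It was also over 2-fold lower on day 14, but its change of −1.22 (−3.04 to 0.10) has an interval that includes 0. Gins2 was at 160, 139, 141, 108 and 144, and Gins4 at 75.2, 132, 116, 71.4 and 83.1. The counts of Gins3 relative to the sum of Gins1, Gins2 and Gins4 went from 7.30 and 9.63 at days 0 and 2 to 2.16, 1.39 and 1.51 at the later days. On the TPM scale Gins3 made up 81.6% of the 4 GINS genes on day 0 and 58.1% on day 14.

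Gins3 alone held 27.7% and 32.9% of all counts of the 48 genes at days 0 and 2, and between 7.44% and 12.2% from day 5 on. Sums over the set therefore follow it in part. All 48 genes together took 0.171%, 0.214%, 0.194%, 0.128% and 0.0954% of the counts of each library in order of day. Without Gins3 these shares were 0.123%, 0.144%, 0.175%, 0.119% and 0.0838%, highest on day 5 in place of day 2. Cdc45, which joins GINS on the helicase, was at 40.6, 56.1, 51.6, 27.1 and 11.6, with a change of −1.72 (−2.83 to −0.88) on day 14. Mcm10 was at 7.15 on day 14, after 27.7 on day 0. For Gins2 67.3% of the exon bases are shared with Gse1 on the opposite strand, so its level is uncertain.

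The sliding clamp and its loader divided into an early and a late part. Pcna (ENSMUSG00000027342, chromosome 2, 132249162 to 132253314), the clamp, was at 109, 116, 303, 173 and 154, 2.77-fold higher on day 5 than on day 0. Its change of 1.47 (1.16 to 1.80) at day 5 compares with one of 0.50 (0.15 to 0.86) at day 14. It is one of the 2 genes of the set with an interval above 0 on day 14. The annotation holds 2 processed copies of Pcna, of which Pcna-ps2 is among the deposited genes and Pcna-ps1 is not. Reads may have been split between Pcna-ps2 and the gene.

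In the loader, Rfc5 (ENSMUSG00000029363, chromosome 5, 117378103 to 117389047) was at 94.1, 334, 111, 53.3 and 55.9. Its change of 1.82 (1.46 to 2.20) on day 2 was the largest rise among the 46 genes on any day. Rfc2, another small subunit, was at 213, 478, 154, 86.4 and 103 and had a day 2 change of 1.16 (0.90 to 1.43). Both stood out in the day 2 library only. The large subunit Rfc1 was at 110, 110, 136, 154 and 125, highest on day 10. Rfc3 and Rfc4 were at 48.3 and 13.4 on day 14, after 72.2 and 42.6 on day 0. Rfc2, Rfc4 and Rfc5 share between 10.7% and 15.1% of their exon bases with a gene on the opposite strand (Lat2, Eif4a2 and Wsb2).

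The median change of 9 primase and polymerase genes was −0.47 on day 14. Of the 9 genes 1 was over 2-fold lower, which is not above the 19.7% of all genes. That gene was Pole (ENSMUSG00000007080, chromosome 5, 110286306 to 110337474), the catalytic subunit of polymerase epsilon, which was at 37.6, 50.7, 47.3, 63.6 and 9.64. It was highest on day 10 and had its lowest value on day 14, with a change of −1.86 (−3.05 to −0.94) from day 0 and −2.60 (−3.75 to −1.78) from day 10. Its partner Pole2 was at 17.8, 23.5, 35.9, 19.3 and 22.3, so that the 2 subunits parted on day 14.

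In polymerase delta the accessory gene Pold3 (ENSMUSG00000030726, chromosome 7, 100082111 to 100121565) was at 46.5, 50.7, 63.9, 48.6 and 79.6. Its change on day 14 was 0.76 (0.25 to 1.32), the highest of the 46 genes on that day. The catalytic gene Pold1 was at 109, 188, 128, 85 and 56.3, with a change of −0.94 (−1.42 to −0.49). Pold2 was at 100, 143, 94.5, 52.1 and 83.1. The catalytic genes of both extending polymerases were thus lowest on day 14, and their partners Pold3, Pold2 and Pole2 were not. Pola1, Pola2, Prim1 and Prim2, which start new strands, changed by −0.58, 0.04, −0.47 and −0.85 on day 14.

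Single-strand binding and Okazaki fragment genes fell into the same kinds of course. Fen1, the flap nuclease, was at 107, 130, 103, 51.3 and 32.5, and Lig1, the ligase of Okazaki fragments, at 132, 273, 174, 112 and 53.7. Both were over 2-fold lower on day 14, with changes of −1.68 (−2.32 to −1.18) and −1.28 (−1.76 to −0.85). Lig1 was also over 2-fold higher on day 2. The 3 RPA subunits differed. Rpa1 was at 314, 317, 284, 156 and 173, Rpa2 at 79.2, 143, 78.8, 46.4 and 56.3, and Rpa3 at 25.7, 25.3, 42, 29.3 and 36.6. On day 10 Rpa1 and Fen1 were just over 2-fold lower in normalized counts, but above day 0 by 0.22 and 0.041 on the log2 scale of TPM. In the annotation, 78.8% of the exon bases of Fen1 are shared with an antisense transcript that had a mean of 3.77 counts.

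Nucleotide synthesis genes showed the largest drops of the set. Rrm2 (ENSMUSG00000020649, chromosome 12, 24708241 to 24714146), the small subunit of ribonucleotide reductase in dividing cells, was at 293, 181, 204, 130 and 7.15. With 296 expected counts at day 0 and 8 at day 14 it was 36.1-fold lower, a change of −5.17 (−6.58 to −4.36). From day 10 to day 14 alone the change was −4.01 (−5.42 to −3.17). The TPM values of Rrm2 gave −3.28 on day 14, and the gene lengths deposited with the values differ between libraries. Rrm1, the large subunit, was at 295, 253, 262, 216 and 114, with a change of −1.36 (−1.68 to −1.06) at day 14. Compared per length, the TPM ratio of Rrm2 to Rrm1 was 1.90 at day 0, 1.11 at day 10 and 0.225 at day 14.

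Tk1 (ENSMUSG00000025574, chromosome 11, 117815526 to 117826092), the thymidine kinase of S phase, was at 106, 208, 135, 52.8 and 16.1. It was highest on day 2 and changed by −2.64 (−3.53 to −1.99) on day 14. Tyms, which makes thymidylate from dUMP, was at 142, 189, 148, 84.7 and 74.7, and its change of −0.92 (−1.33 to −0.53) stayed within 2-fold. Dut, which breaks down dUTP, was at 169, 226, 168, 62.1 and 59. It was already 2.70-fold lower on day 10, although its log2 change was then 0.10 above the median change of genes of like length. Rrm2b, an alternative small subunit that is not a member of the set, was at 16.9, 25.6, 33.3, 60.7 and 35.8. It was highest on day 10.

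Of the 3 E2F and cyclin E genes that passed the minimum 1 was over 2-fold lower on day 14, beside 19.7% of all genes. E2f1, an activator of S-phase genes, was at 140, 191, 161, 114 and 89.4, with a change of −0.64 (−1.03 to −0.26) on day 14. Ccne1, which drives entry into S phase with Cdk2, was at 137, 172, 135, 63.6 and 57.2 and was 2.37-fold lower on day 14. On day 10 its change was −1.10 in normalized counts and 0.056 in TPM. Ccne2 was at 23.6, 5.93, 27.5, 17.4 and 16.3, and its low value on day 2 rests on 3.28 expected counts. Ccne2 shares 17.4% of its exon bases with Ints8. E2f2 had 1, 8, 7, 10 and 5 expected counts, with the day 0 library at the floor of 3 counts or below.

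Chaf1a and Chaf1b, which place histones on new DNA, had a median change of −1.18 on day 14, and Chaf1b was over 2-fold lower. Chaf1a was at 47.9, 48.6, 88.4, 58.7 and 29.3, highest on day 5, and Chaf1b at 79.2, 138, 84, 34.3 and 24.2, highest on day 2. For Chaf1a 52.5% of the exon bases are shared with Ubxn6, a more abundant gene on the opposite strand. Brca1, which protects and repairs stalled forks, was at 13.9, 19.9, 33.3, 22.1 and 5.36. The day 5 value rests on 38 expected counts and the day 14 value on 6. The change of Brca1 on day 14 was −1.22 (−3.04 to 0.10), with an interval that includes 0.

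Ratios of counts between partner genes within a library do not depend on the size factor given to that library, but TPM ratios also move with the gene lengths deposited for it. The pairs were chosen after their values had been seen, so they are a description. Relative to day 0, the count ratio of Rrm2 to Rrm1 was 0.0628 (0.0262 to 0.131) on day 14. Tk1 to Tyms was at 0.290 (0.154 to 0.521), and Pold1 to Pold3 at 0.303 (0.184 to 0.497). Mcm5 to Mcm4 was at 0.275 (0.161 to 0.466), and Pole to Pole2 at 0.204 (0.0759 to 0.561). All 5 were below 1 on day 14 with TPM as well, at 0.119, 0.460, 0.205, 0.275 and 0.135 in the same order. On day 2 Mcm5 to Mcm4 was at 2.78 (1.54 to 5.11) and Ccne1 to Ccne2 at 5.00 (1.60 to 29.2), both through the low partner of the pair. Chaf1a to Chaf1b was at 2.83 (1.67 to 4.87) on day 10. The TPM ratio of Rrm2b to Rrm2 was 0.0338 at day 0, 0.274 at day 10 and 1.39 at day 14.

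**Figure D4:**
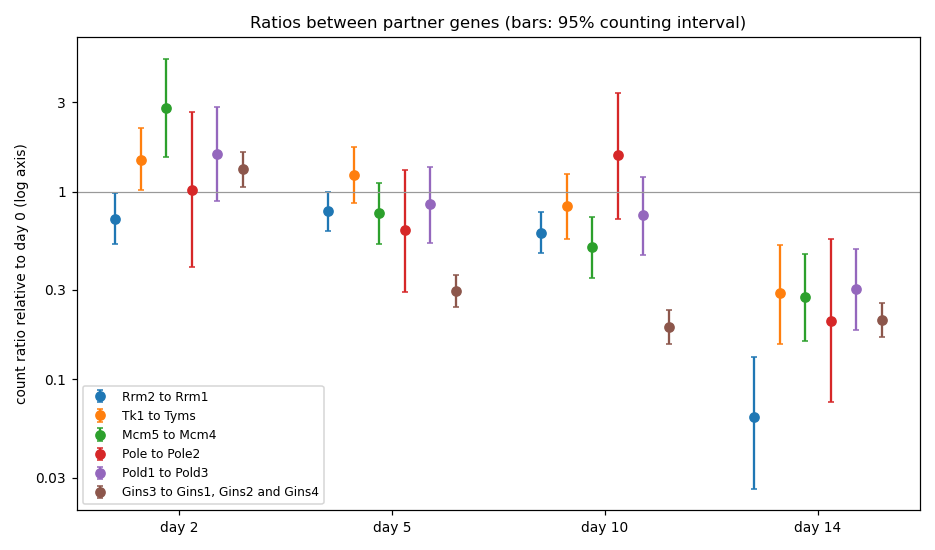
Ratio of expected counts between partner genes relative to day 0 (log axis) on days 2, 5, 10 and 14, with bars for the exact 95% counting interval. Rrm2 to Rrm1 goes down to 0.0628 on day 14, the other pairs to between 0.204 and 0.303, and Gins3 relative to the 3 other GINS genes is near 0.2 from day 10 on.

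Mitosis genes were compared as a list of 24. Their median change was 0.75, 0.99, 0.25 and −2.21 for days 2, 5, 10 and 14. All 24 were over 2-fold lower on day 14, beside 19.7% of all genes. Of them 22 were over 2-fold lower on day 14 than on day 10, beside 6.5% of all genes. With TPM 12 of the 24 were over 2-fold lower on day 14, beside 818 of the 12130 genes. Tpx2, Bub1b and Ccnb1, which build the spindle, guard its checkpoint and drive entry into mitosis, had the largest changes among genes that averaged at least 50 counts, of −2.74, −2.68 and −2.63. Kif20a and Bub1 had the smallest, of −1.11 and −1.50.

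In normalized counts the median of the replication genes was thus below day 0 at day 10, when that of the mitosis genes was still above it, and less far below at day 14. Summed counts of the 48 genes were 3.78, 2.93, 1.83, 1.70 and 7.88 times those of the mitosis list in order of day. Relative to day 0 the ratio was 0.774 (0.716 to 0.837), 0.485 (0.453 to 0.519), 0.449 (0.419 to 0.482) and 2.08 (1.86 to 2.35) at the later days. Without Gins3 it was 0.719, 0.602, 0.575 and 2.53. The ratio was below 1 on days 2, 5 and 10 and above 1 on day 14 in counts and in TPM.

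**Figure D5:**
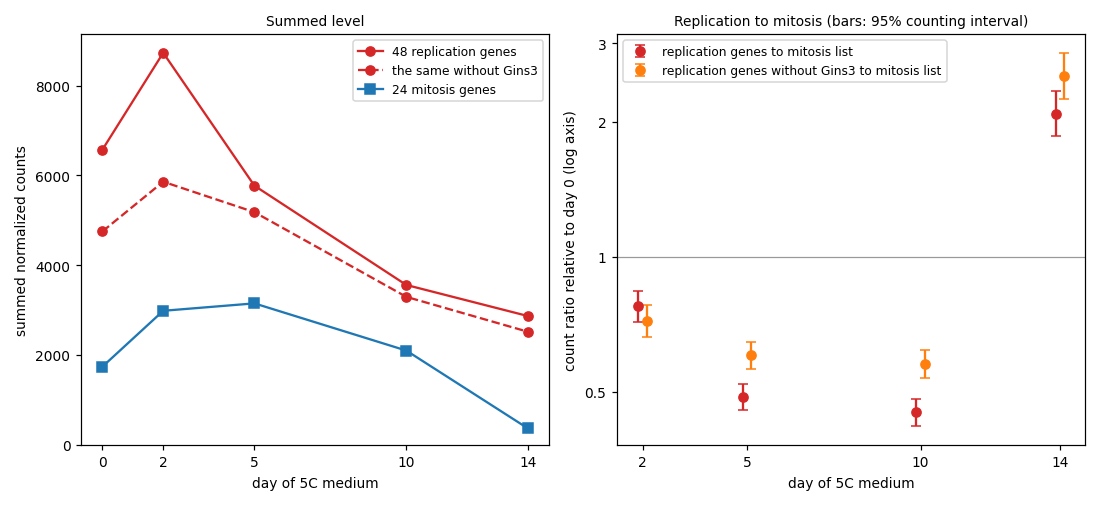
Left, normalized counts summed over the 48 replication genes (with and without Gins3) and over 24 mitosis genes, by day. Right, the ratio of replication to mitosis counts relative to day 0 (log axis), with bars for the exact 95% counting interval. The mitosis sum is near its highest on days 2 and 5 and at 364 on day 14, where the ratio is 2.08, or 2.53 without Gins3.

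Further replication genes outside the set held both directions. Of 34 listed genes 31 passed the minimum, with 3 over 2-fold higher and 11 over 2-fold lower on day 14 and a median of −0.53. These counts stand beside 22.8% and 19.7% of all genes. With TPM 10 were higher and 2 lower on day 14, where all genes had 5116 higher and 818 lower. Dbf4 and Cdc7, the regulatory and catalytic subunits of the kinase that fires origins, went apart. Dbf4 was at 82.1, 68.7, 90.1, 52.9 and 23.2, and Cdc7 at 15.8, 14.5, 57.8, 46.4 and 40.2. Timeless, which steadies the fork, was at 18.9, 29.1, 71.8, 84.3 and 57.9, 2.97-fold higher on day 14. Nasp, a carrier of histones, was 2.17-fold lower on day 14.

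Among 17 genes of the E2F and RB family 4 were higher and 4 lower over 2-fold on day 14, with a median of 0.01, beside 22.8% and 19.7% of all genes. The higher genes were Rbl2, Cdkn1b, Tfdp1 and Rrm2b. Rbl2, an RB-like repressor of E2F targets, was at 8.97, 17.9, 71.9, 117 and 91.4, with a change of 3.21 (2.37 to 4.53) on day 14. Cdkn1b, an inhibitor of cyclin E and Cdk2, was at 22.8, 34.4, 59.5, 134 and 156, with a change of 2.73 (2.15 to 3.48). Tfdp1, the partner with which E2F factors bind DNA and which was named after its value had been seen, changed by 1.27. Cdkn1a, another inhibitor of this kind, went the other way, from 4119 at day 0 to 1013 and 1128 at days 10 and 14. E2f7, itself an E2F target and a repressor, was at 29.8 on day 0 and 3.73 on day 14.

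Of 13 recombination repair genes that passed the minimum, 3 were higher and 1 lower over 2-fold on day 10. These counts stand beside 26.4% and 22.7% of all genes, and the median of the list was 0.36. On day 14, 0 were higher and 4 lower, with a median of −0.67, beside 22.8% and 19.7% of all genes. With TPM 1 was higher and 0 were lower on day 14, where all genes had 5116 higher and 818 lower. From day 10 to day 14, 9 of the 13 were over 2-fold lower, beside 6.5% of all genes. Atrip changed by −0.83 on day 14. Atr and Fanci went in the other direction from the median of the list, with changes from day 0 of 0.12 and 0.06.

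Markers of other cells moved over the same days. Their counts of genes over 2-fold higher and lower on day 14 stand beside 22.8% and 19.7% of all genes. Markers near 0 on day 0 could pass the minimum mean only through the later libraries, where they are high. For such markers a call of higher was set in part by that minimum. Summed normalized counts of 14 macrophage markers were 290, 2256, 3772, 2099 and 1530 in order of day, and of the 11 that passed the minimum 8 were over 2-fold higher and 1 lower on day 14. Lyz2 and Cd68 were the most abundant of them, Ptprc was at 0 on day 0, and Cx3cr1 was at 0 on days 10 and 14. The 10 Schwann cell and neural crest markers, led by Ngfr and Sox10, summed to 160, 234, 1292, 8227 and 11106, and all 10 were over 2-fold higher on day 14. On day 0 these 10 held 162 expected counts together. Gfap was at 0 on day 0. The 13 neuron markers, led by Gap43 and Stmn2, summed to between 798 and 2827, with 4 of 7 over 2-fold higher and 2 lower on day 14, or 2 higher and 1 lower with TPM. Rbfox3, a marker of mature neurons, was at 0 in all 5 libraries, and Dcx was at 0 from day 2 on. The 13 fibroblast markers, led by Vim and S100a4, summed to 64276, 60840, 55573, 71329 and 104928 in order of day. Of these markers 4 were over 2-fold higher and 4 lower on day 14. The part of these cells in the changes of the replication genes was not tested.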

How the data were processed

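RNA-seq of MEFs gave 1 library for each of 5 days, mapped to its day by the labels. The values the authors deposited are expected counts, which are RSEM estimates without scaling, and TPM and FPKM, which are divided by gene length. The FPKM values that the authors deposited were not used. The submitters' processing notes name Bowtie, RSEM and mm10, and versions are not given in the sources used here. Libraries were made with the TruSeq RNA kit from 1 µg of total RNA. Such a kit selects polyadenylated RNA and does not mark strand.

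Gene symbols and coordinates came from GENCODE M21 (GRCm38), which matched 27247 of 27729 genes. The members and all gene lists were chosen with earlier results of these data known. Rounded expected counts gave TMM factors in edgeR 4.0.16 (R 4.3.3), between 0.808 and 1.19. A normalized count is the expected count over the library's effective size, times the geometric mean of these sizes. Log2 changes used a pseudocount of 1, a threshold of 2-fold and a minimum mean of 10 expected counts over the 5 libraries. The fold change of a low gene is understated on this scale. Intervals of single genes are exact Clopper-Pearson intervals without the pseudocount, those of count ratios are conditional exact intervals, and no p-value was computed. Reads carried no molecular identifiers.

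All members could be named. Values in every library were given for those that reached 100 expected counts in any library, or that stood alone in their role. Others were added where they complete a complex. Of each further list, the 3 genes with the largest change on day 14 and a mean of 50 or more counts, and the 2 genes that went most against the median, were eligible. Of marker lists the 2 most abundant genes were named. Rrm2b was named after its values had been seen. Promoter windows came from RefSeq (GRCm38.p6). Alternatives were the size factors of DESeq2 1.42.0, total counts, quantile normalization, TPM with and without centring, centring by gene length, a pseudocount of 5, other minimum counts and a 1.5-fold threshold. Library sizes without Gm42418 and Lars2, and ratios without Gins3, were added later, with the values in view.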

Additional observations from a re-analysis of the deposited data

How the results depend on the processing

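Of 152 alternative values for the medians, counts and ratios, 109 differed little from those given above and 43 moved. The median of the 46 genes turned its sign on day 10 with TPM, from −0.50 to 0.46, and the genes called then went from 10 lower and 0 higher to 1 lower and 10 higher. The cause of these moves was not tested. With TPM the median was −0.33 on day 14, the higher genes were 7, 13, 10 and 4 on days 2, 5, 10 and 14, the lower genes 0, 1 and 6 on days 5, 10 and 14, and the replication to mitosis ratios 0.879, 0.565 and 0.559 on days 2, 5 and 10. TPM centred on all genes gave 9 higher and 1 lower on day 2 and 1 higher on day 5. Total counts without TMM gave a median of −0.028 on day 10, with 7, 4 and 1 higher genes on days 5, 10 and 14 and 2 lower genes on day 10. Quantile normalization gave 1 higher gene on day 5. Centring by length gave 4, 3 and 2 higher genes on days 5, 10 and 14 and 6 lower genes on day 10. A mean of 50 or more counts, which tests fewer genes, gave 1 lower gene on day 2 and 1 higher gene on day 5. With 10 counts in 1 or more libraries, or with no filter, 1 gene was higher on days 10 and 14. The 1.5-fold threshold gave 11, 10, 4 and 1 higher genes and, on days 2, 5 and 10, 8, 2 and 20 lower genes. Differences of medians in place of sums gave ratios of 0.585 and 0.597 on days 5 and 10, and leaving out Gins3 gave 0.602, 0.575 and 2.53 on days 5, 10 and 14. Over 2-fold lower values turned on day 10 for 4 genes, to 0.22 for Rpa1, 0.041 for Fen1 and 0.056 for Ccne1 with TPM and to 0.10 for Dut with centring by length. DESeq2 size factors, a pseudocount of 5 and library sizes without Gm42418 and Lars2 moved none of these medians and counts. A mean of 50 or more counts left no value for Brca1 as a role of its own. No replicate could be left out and no paired analysis was possible because each day has 1 library. Depth limits the genes under about 30 counts, such as Cdc6, Gins1, Ccne2 and Brca1.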
